A study of Mus musculus with 12 samples.

Results

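The genes described here are 10 genes known as products of fat cells, read in pieces of mouse colon: the secreted factors Adipoq, Lep, Retn and Cfd, the lipid droplet proteins Plin1, Plin4 and Cidec, the lipid carrier Fabp4, the lipase Lpl and the carbonic anhydrase Car3. They are 10 of the 54532 genes in the count table, and each symbol matched 1 row. The members were selected on measured values of these libraries, namely on how their counts in single libraries stood apart from the rest of the same treatment group. The level of each library against its own group is therefore given as a description, with no test.

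RNA-Seq was run on the colon of 12 wild-type male C57BL/6J mice, described as 5 weeks old, with 3 libraries in each of 4 groups. The control group received no treatment, and the model group drank dextran sulfate sodium (DSS), a polymer that injures the lining of the colon and causes acute colitis. The Rhy group received DSS and oral rhynchophylline, an alkaloid of Uncaria plants, and the DXM group received DSS and the synthetic glucocorticoid dexamethasone at 4 mg/kg. The comparisons of model with control and of each treated group with model address how colitis and its treatment change the tissue. The study dosed Rhy at 2, 4 or 8 mg/kg, and the labels do not name the dose of the sequenced mice. Libraries are called by group and label number, for example model 3. The labels give no position along the colon for the pieces and no sequencing batch or date, and whether adherent fat was trimmed is not given in the sources used here.

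Fat cells store triglyceride in a large droplet coated by perilipins and enlarged by CIDE proteins. They take up fatty acids that lipoprotein lipase frees from circulating lipoproteins, and they secrete adipokines such as adiponectin, leptin and resistin into the blood. Around the colon they are abundant in the mesentery and in fat attached to the outer surface, whereas the mucosa holds few of them. Several genes named for fat cells are also used by other cells, and lipid droplets and lipases occur in enterocytes, muscle and macrophages.

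The stretches just before the start sites are shown for 4 members whose levels varied together across libraries and, for contrast, for Plin4, a perilipin like Plin1 that did not follow them. Each line gives the 250 bases upstream of the annotated start, 5′ to 3′ on the gene's own strand, from RefSeq on GRCm38. For Plin1 and Plin4 the RefSeq start lies inside the gene span given below, so part of each window lies within that span. For Plin1 this part holds the second TTGCNNAA match. Capitals mark CCAAT on either strand (ATTGG is its reverse complement) and TTGCNNAA, the form searched for C/EBP factors.
Adipoq (chr16:23146286-23146535, + strand): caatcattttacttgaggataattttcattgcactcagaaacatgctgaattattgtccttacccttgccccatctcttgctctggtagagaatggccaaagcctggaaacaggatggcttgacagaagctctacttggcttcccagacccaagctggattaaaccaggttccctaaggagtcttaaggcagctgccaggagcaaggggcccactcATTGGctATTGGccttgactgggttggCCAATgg
Retn (chr8:3655520-3655769, + strand): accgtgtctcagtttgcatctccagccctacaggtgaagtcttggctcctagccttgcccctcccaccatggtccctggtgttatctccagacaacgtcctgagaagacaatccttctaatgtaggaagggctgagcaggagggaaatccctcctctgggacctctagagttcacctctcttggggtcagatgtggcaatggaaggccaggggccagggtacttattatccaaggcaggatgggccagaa
Cfd (chr10:79890603-79890852, + strand): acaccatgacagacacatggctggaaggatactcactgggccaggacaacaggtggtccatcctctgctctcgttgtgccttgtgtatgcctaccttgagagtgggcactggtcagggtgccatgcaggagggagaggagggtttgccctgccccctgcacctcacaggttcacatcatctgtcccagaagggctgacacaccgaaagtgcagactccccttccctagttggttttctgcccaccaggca
Plin1 (chr7:79732777-79733026, - strand): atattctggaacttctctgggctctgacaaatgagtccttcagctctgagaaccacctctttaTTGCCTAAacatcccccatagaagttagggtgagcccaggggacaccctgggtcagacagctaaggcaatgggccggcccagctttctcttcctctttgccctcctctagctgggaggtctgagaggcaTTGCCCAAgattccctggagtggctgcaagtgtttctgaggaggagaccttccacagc
Plin4 (chr17:56109783-56110032, - strand): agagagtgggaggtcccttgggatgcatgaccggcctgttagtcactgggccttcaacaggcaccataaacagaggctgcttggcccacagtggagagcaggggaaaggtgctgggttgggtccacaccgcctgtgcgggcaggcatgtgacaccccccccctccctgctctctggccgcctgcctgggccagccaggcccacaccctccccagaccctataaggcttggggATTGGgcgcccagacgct
A window was given for 7 members, Cidec having 2 starts, and none for Fabp4, Car3 and Lpl. CCAAT was found 3 times before Adipoq and once before Plin4, and it occurred in 33.8% of 32851 such windows over all genes. TTGCNNAA was found before Plin1, Lep and 1 start of Cidec, against 9.56% of all windows. AGGTCA was found before 0 members and in 4607 of all windows. Its direct repeat with 1 base between, searched for PPAR factors and overlapping it, was before 0 members and in 0.0335% of windows. TATAAA was in 0 members and 12.4% of windows. These matches describe the letters of the windows and do not identify bound sites. Both strands were searched, and the 4 genes that moved together did not share a match.

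Total counts were 14346478 to 17749716 per library. Model 1 and model 2 were nearly identical, with a common dispersion of 0.00201 between them against 0.0597 to 0.343 for the other 65 pairs, so results are also given with their counts summed into 1 library. Epithelial keratins were abundant in every library (Krt8 5283 to 9534 CPM), and markers of the serosal lining were scarce, at 3.51 to 15.5 CPM summed over 10 genes. CPM values are counts relative to the library size as scaled by edgeR's TMM factors. The coordinates of all 10 members in the table were those of GENCODE M21 on GRCm38.

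Model 3 held by far the highest level of most of these genes. It was the highest of all 12 libraries for 7 of the 10 members (Adipoq, Lep, Retn, Cfd, Plin1, Fabp4 and Car3) and the highest of its group for 10 of 10. The summed level of the 10 members was 398 CPM in model 3 against 50.8 in model 1 and 50.1 in model 2, a 7.89-fold difference from the median of those libraries. In the control group the sum was 37.2, 174.7 and 138.5 CPM in replicates 1, 2 and 3. In the Rhy group it was 170.4, 156.7 and 46.5 CPM, and in the DXM group 96.6, 108.3 and 72.8 CPM. Like sums were made of different genes: Lpl and Cidec were at 81.9 and 33.4 CPM in Rhy 1, whereas Fabp4, Cfd and Car3 were at 61.8, 29.3 and 28.1 CPM in Rhy 2.

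**Figure D1:**
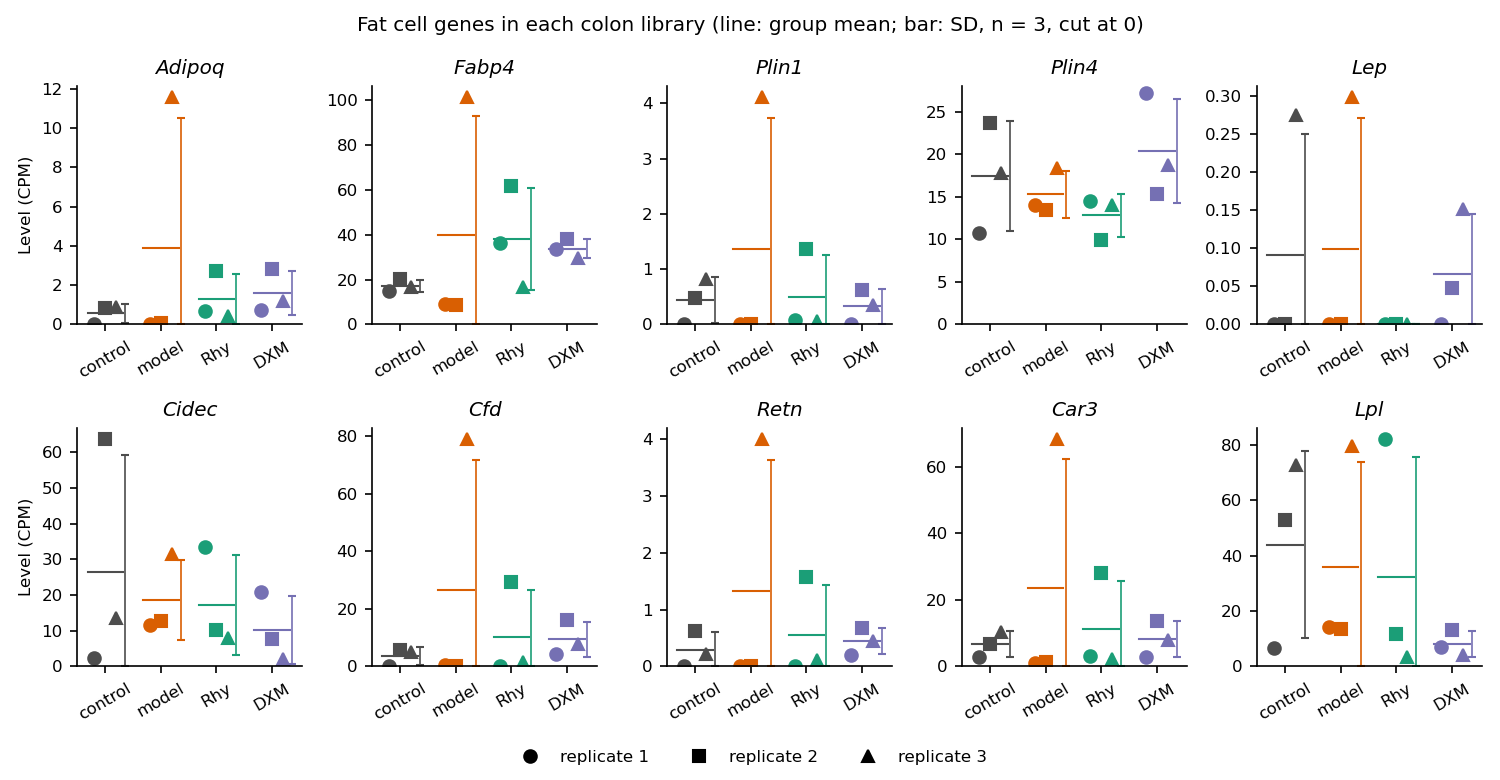
Level of each of the 10 genes in each of the 12 libraries, in CPM on a linear axis that starts at 0; symbols mark the replicate number, lines the group mean and bars the SD (n = 3, cut at 0). Model 3 (orange triangle) stands far above model 1 and model 2 for Adipoq, Plin1, Retn, Cfd, Car3 and Fabp4, and Plin4 varies little.

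Among the secreted factors, Cfd encodes adipsin, the complement factor D protease, and lies at chr10:79890853-79892655 on the plus strand. Its counts were 2, 82 and 92 in the controls, 11, 3 and 1326 in the model group, 3, 448 and 25 in the Rhy group and 63, 334 and 156 in the DXM group. Model 3 held 52.1% of all Cfd counts of the series. In CPM it reached 79.0 in model 3, 29.3 in Rhy 2 and 16.1 in DXM 2, and 5.70 in control 2, the highest control. From the pooled counts, model 3 was 195-fold above the other 2 model libraries (95% exact interval 116 to 358), and Rhy 2 was 30.7-fold above the other 2 Rhy libraries (20.9 to 46.7). These intervals, like those given below for Adipoq and Car3, cover counting error only, since reads carry no molecular identifiers. The members were selected on this contrast, so no interval here tests whether a library differs from its group.

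Adipoq encodes adiponectin, a hormone made almost solely by fat cells (chr16:23146536-23158028, plus strand). It had 0, 12 and 16 counts in the controls, 0, 1 and 194 in the model group, 8, 42 and 8 in the Rhy group and 11, 59 and 24 in the DXM group. The same 3 libraries as for Cfd were at the top: model 3 at 11.6 CPM, then DXM 2 at 2.84 and Rhy 2 at 2.74, which differed little from each other. Control 3, at 0.878 CPM, was the highest control. With 1 count in the other 2 model libraries together, the ratio of model 3 to them was 400.0 with a 95% exact interval of 71.0 to 15880.

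Retn encodes resistin (chr8:3655770-3660110, plus strand). Its counts were 0, 9 and 4 in the controls, 0, 0 and 67 in the model group, 0, 24 and 2 in the Rhy group and 3, 14 and 9 in the DXM group. Against a floor of 3 counts per library, model 3 at 3.99 CPM was at least 21.9-fold higher than each of the other 2 model libraries, and Rhy 2 reached 1.57 CPM. Lep encodes leptin (chr6:29060220-29073877, plus strand) and was barely detected. It had 14 counts in the series: 5 in control 3, 5 in model 3, 1 in DXM 2 and 3 in DXM 3. The other 8 libraries had 0, which at 3 counts allows up to 0.145 to 0.257 CPM over the 12 libraries, so a difference in Lep between groups was not detectable at this depth.

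Among the lipid droplet proteins, Plin1, the perilipin that guards the droplet of white fat cells (chr7:79720218-79732903, minus strand), followed the secreted factors. Its counts were 0, 7 and 15 in the controls, 0, 0 and 69 in the model group, 1, 21 and 1 in the Rhy group and 0, 13 and 7 in the DXM group. Model 3, at 4.11 CPM, was at least 22.6-fold above each of the other 2 model libraries by the same floor, and Rhy 2 was next at 1.37 CPM.

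Plin4, a perilipin of small droplets that is also used in muscle (chr17:56100591-56109803, minus strand), did not share this pattern. It had 144, 340 and 324 counts in the controls, 254, 221 and 309 in the model group, 170, 152 and 248 in the Rhy group and 396, 317 and 369 in the DXM group. Its whole range was 9.93 CPM in Rhy 2 to 27.2 CPM in DXM 1, and model 3, at 18.4 CPM, was 1.34-fold above the other 2 model libraries. Rhy 2, among the highest libraries for Cfd and Adipoq, was thus the lowest of the 12 for Plin4. The 3′ end of Plin4 overlaps the end of Hdgfl2 on the opposite strand, from base 56100591 to 56100607. The exons of Plin4 cover 5777 bases. The sources used here do not state whether the counting used strand, so the origin of reads that reach the shared stretch is uncertain.

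Cidec encodes a protein that fuses lipid droplets (chr6:113424634-113435760, minus strand) and peaked in another library. It had 30, 914 and 249 counts in the controls, 208, 212 and 527 in the model group, 390, 158 and 142 in the Rhy group and 302, 162 and 39 in the DXM group. Control 2 was highest at 63.6 CPM, followed by Rhy 1 at 33.4 and model 3 at 31.4 CPM. The lowest levels were 1.98 CPM in DXM 3 and 2.25 CPM in control 1, so the controls alone spanned nearly the whole range.

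Fabp4, the fatty acid carrier of fat cells, which capillary endothelium and macrophages also make, lies at chr3:10204088-10208576 on the minus strand. It was detected in every library, with 197, 291 and 306 counts in the controls, 166, 145 and 1701 in the model group, 423, 947 and 294 in the Rhy group and 492, 790 and 586 in the DXM group. Model 3 was highest at 101.3 CPM and Rhy 2 next at 61.8 CPM. By group, the range was 14.75 to 20.2 CPM in control, 8.80 to 101.3 in model, 16.6 to 61.8 in Rhy and 29.7 to 38.1 in DXM. DXM was not tested against control.

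Lpl, the lipoprotein lipase that fat, muscle and macrophages secrete (chr8:68880491-68907448, plus strand), was high in 4 libraries from 3 groups. Its counts were 88, 760 and 1321 in the controls, 261, 222 and 1337 in the model group, 957, 177 and 61 in the Rhy group and 101, 273 and 85 in the DXM group. Rhy 1 (81.9 CPM), model 3 (79.6), control 3 (72.5) and control 2 (52.9) were high, and the other 8 libraries lay between 3.45 and 14.4 CPM. By group, the range was 6.59 to 72.5 CPM in control, 13.5 to 79.6 in model, 3.45 to 81.9 in Rhy and 4.305 to 13.2 in DXM.

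Car3, a carbonic anhydrase abundant in fat cells and slow muscle (chr3:14863512-14872523, plus strand), followed Cfd. It had 36, 97 and 191 counts in the controls, 21, 21 and 1146 in the model group, 38, 430 and 41 in the Rhy group and 41, 284 and 160 in the DXM group. Model 3 stood at 68.3 CPM, 56.3-fold above the other 2 model libraries in pooled counts (95% exact interval 41.4 to 78.5), and Rhy 2 at 28.1 and DXM 2 at 13.7 CPM came next.

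The deposited FPKM values, which are per gene length, allow genes to be ranked within a library. In model 3 the FPKM level was 83.8 for Cfd, 23.3 for Car3, 22.1 for Fabp4, 16.5 for Cidec and 8.19 for Adipoq. In model 1 the order was led by genes that are not confined to fat cells, with FPKM levels of 5.98 for Cidec, 2.35 for Plin4, 1.97 for Fabp4 and 1.33 for Lpl, while Cfd was at 0.637. Each is a single library without a replicate. The table length of Fabp4, 4489 bases, equals its whole gene span, introns included, so its FPKM is not on the same footing as the others.

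Over the whole count table, 6 of the 9 members that passed the filter on low counts were 10-fold or more above the other 2 libraries of the group in model 3, as were 47 of all 16904 genes tested (0.278%), genes at 0 in the other 2 being set to the floor. This is the contrast on which the members were selected, and the 2 shares are given only for orientation. The heatmap of deviations from the group means shows the same libraries.

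**Figure D2:**
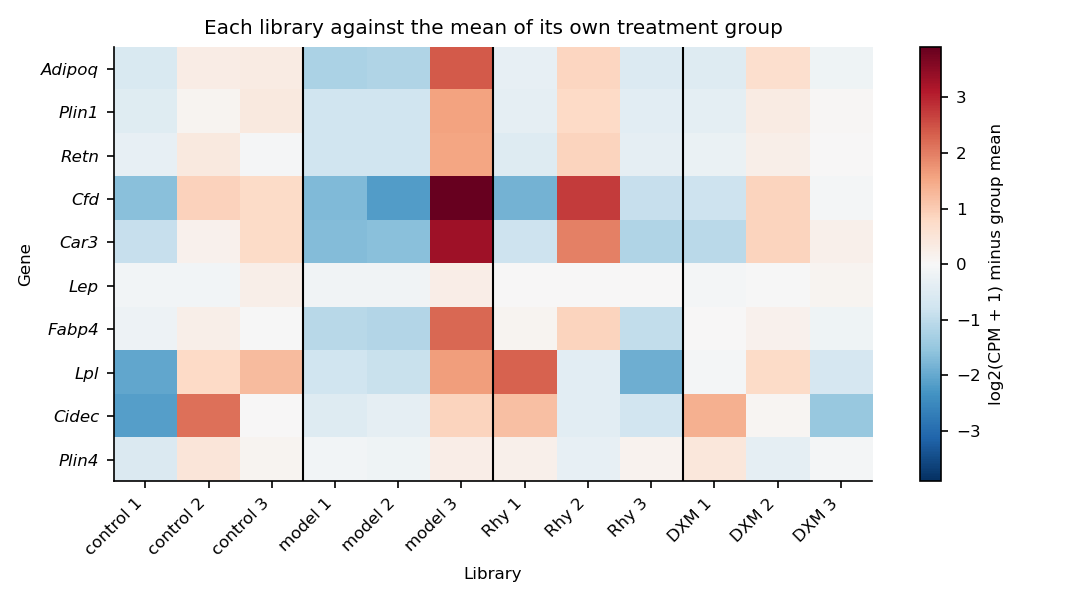
Difference of each library from the mean of its own treatment group, in log2(CPM + 1), for the 10 genes (rows) and 12 libraries (columns; black lines part the groups). The upper rows, Adipoq to Car3, are positive together in model 3, Rhy 2, DXM 2 and control 2. Lpl and Cidec are also positive in model 3 and control 2, but in the Rhy group they are positive in Rhy 1 and negative in Rhy 2. Plin4 stays near 0.

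The members fell into genes that varied together and genes that did not, a grouping made after their values were seen. Over the 12 libraries, Pearson's r of log2(CPM + 1) was 0.897 to 0.958 for the 10 pairs among Adipoq, Plin1, Retn, Cfd and Car3. For deviations from the group means it was 0.946 to 0.994. Fabp4 correlated with these 5 genes at 0.766 to 0.899, and Plin4, Cidec and Lpl at 0.052 to 0.495. Among the last 3 genes the highest value was 0.742, for Cidec with Lpl. These correlations describe 12 libraries that share depth scaling and that include the near-identical pair, and model 3 is the highest point of each of the first 5 genes.

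Ratios of CPM between members were taken over libraries with at least 10 counts of both genes, which differ in number between pairs. The ratio of Adipoq to Cfd kept within 0.0938 to 0.177 over 7 libraries, a 1.88-fold range, although Adipoq itself ran from 0.754 to 11.6 CPM there. Plin1 to Retn ran from 0.875 to 1.03 and Cfd to Retn from 18.7 to 23.9, each over 3 libraries. Other pairs of the 5 genes were wider, with a 4.25-fold range for Adipoq to Plin1 and 4.19-fold for Plin1 to Cfd over 4 libraries and 3.19-fold for Cfd to Car3 over 9. The ratio of Fabp4 to Cidec ranged 47.2-fold and that of Car3 to Lpl 61.2-fold over 12 libraries, but over few libraries pairs with Cidec were also narrow, at 1.76-fold for Cidec to Retn over 3 and 2.21-fold for Plin1 to Cidec over 4. The ratios therefore do not separate the genes in the way the correlations do.

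**Figure D3:**
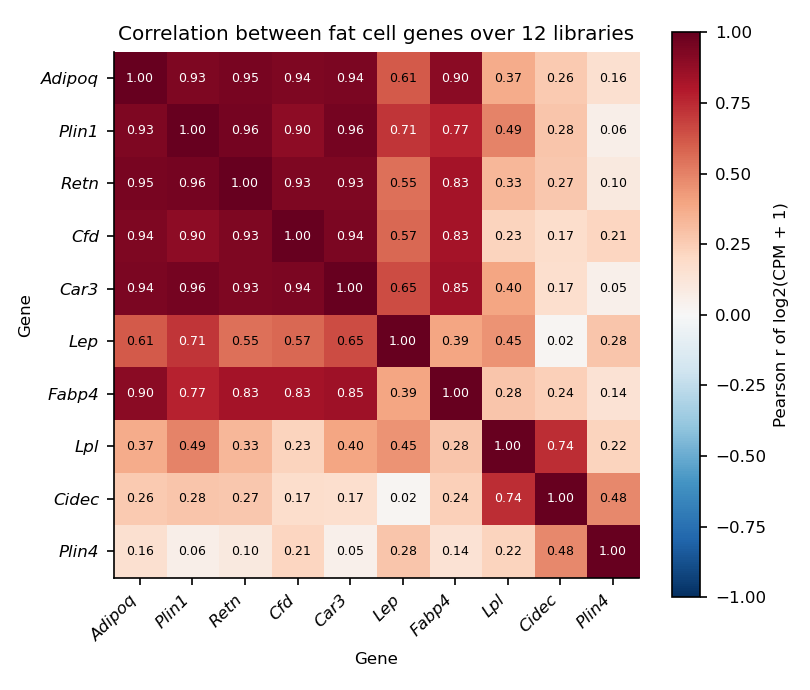
Pearson's r of log2(CPM + 1) between each pair of the 10 genes over the 12 libraries, on a colour scale from -1 to 1. Adipoq, Plin1, Retn, Cfd and Car3 form a block at 0.897 to 0.958, and Plin4, Cidec and Lpl lie outside it.

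In the model against control comparison, edgeR called 0 of 9 members tested at an adjusted p under 0.05 (quasi-likelihood test, adjusted over all genes), and the share of all genes called was 0%. At an unadjusted p under 0.05, 0 of 9 members were called, against 9.62% of all genes tested. The median log2 fold change of the 9 was 1.59 (all genes 0.01), with 6 higher and 3 lower in model. Cfd had the largest change, at 2.86 ± 1.88 (SE) with an edgeR adjusted p of 0.646, between 3.63 ± 3.04 CPM in control and 26.6 ± 45.4 CPM in model (SD, n = 3). Adipoq changed by 2.72 ± 1.64 with an edgeR adjusted p of 0.614, and Lpl by -0.30 ± 1.08 with 0.949. The SD of the model group exceeded its mean for Cfd, Adipoq, Plin1, Retn, Car3, Fabp4 and Lpl, so none of these differences was larger than the spread between replicates. In bulk tissue, a smaller number of fat cells and less RNA per fat cell cannot be told apart.

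In the Rhy against model comparison, 0 of 9 members passed the adjusted threshold (0% of all genes) and 0 of 9 the unadjusted one (3.72% of all genes). All 9 point estimates were lower in Rhy, with a median log2 fold change of -1.07 (all genes -0.01). Adipoq changed by -1.57 ± 1.55 and Fabp4 by -0.06 ± 0.77, with an edgeR adjusted p of 1 for each. In the DXM against model comparison the counts were again 0 of 9 adjusted (0% of all genes) and 0 of 9 unadjusted (7.69% of all genes). Of the 9 point estimates, 8 were lower in DXM, with a median of -1.49, and Plin4 was 0.41 ± 0.31 higher. The lowest unadjusted edgeR p among the members was 0.0842, for Lpl at -2.14 ± 1.13. Both comparisons share the model libraries, so their like direction is not 2 separate results.

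The direction of these comparisons rested on model 3. Without it, the median log2 fold change of the 9 genes became -2.50 for model against control, 3.23 for Rhy against model and 2.77 for DXM against model. Fabp4, for example, was then 2.12 ± 0.45 higher in Rhy than in model on the log2 scale. The model group then consists of the near-identical pair, and the members were selected on libraries that stand apart, so these values are a description and no test is given. With that pair summed and model 3 kept, the medians were 2.15, -1.62 and -2.06. In that fit 0 members passed the adjusted threshold. Fabp4 in model against control passed the unadjusted one (edgeR p 0.0452), as did 866 of all 17346 genes tested. Fitted values for Plin1 and Retn against libraries at 0 depend on the prior count and are no bounds.

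**Figure D4:**
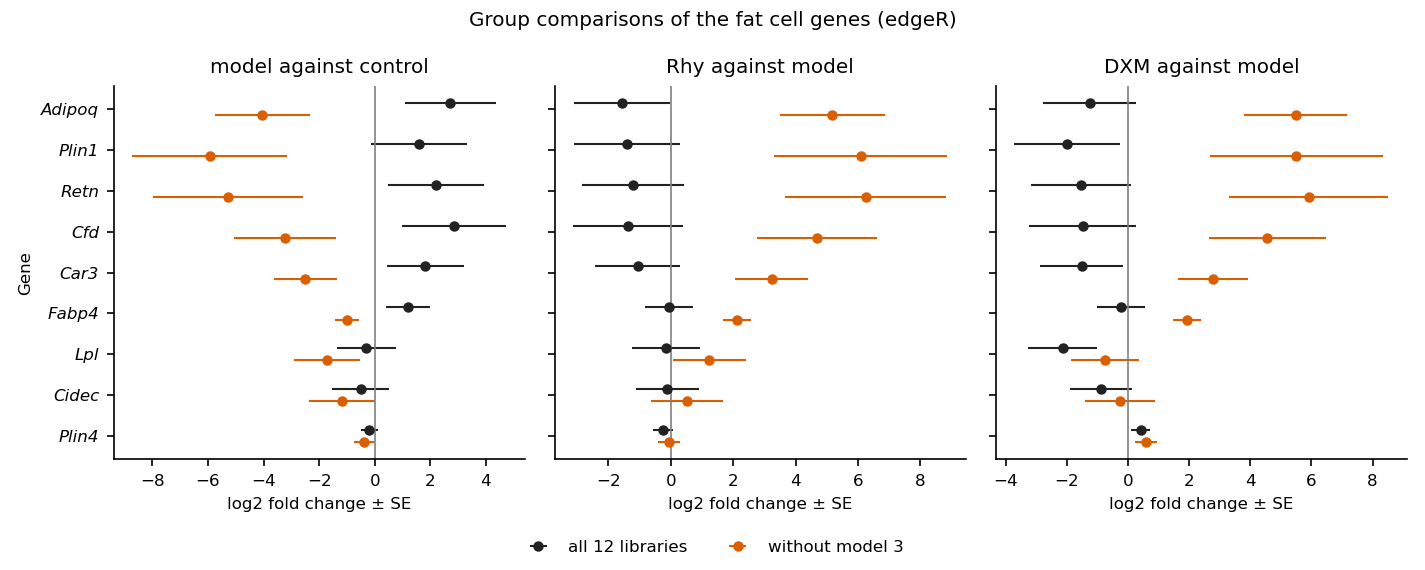
log2 fold change ± SE of the 9 members tested in each comparison, from edgeR on all 12 libraries (black) and without model 3 (orange); the grey line marks 0. Adipoq, Plin1, Retn, Cfd, Car3 and Fabp4 change sign in all 3 comparisons, whereas Plin4 stays close to 0.

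Other genes known from fat cells were read from a list of 30, of which 26 passed the filter. In model against control 0 were called higher and 1 lower at an unadjusted p under 0.05 (9.62% of all genes called), in Rhy against model 0 and 1 (3.72%), and in DXM against model 2 and 0 (7.69%), with 0 passing the adjusted threshold in each. These shares are near or below those of all genes. The median changes were -0.09, -0.08 and -0.05. Cd36, a fatty acid transporter of fat cells, endothelium and macrophages, had the profile most like the mean of the members (r = 0.796), with 16.6 CPM in model 3 against 4.36 in model 1 and 3.15 CPM in model 2. Thrsp, a regulator of lipid synthesis, had r = 0.753 and 6.08 CPM in model 3 against 0.827 and 0.91 CPM. Of the 28 list genes with enough counts, 5 had r over 0.5, against 3.95% of all genes. Like Cidec, 4 abundant genes of the list had their highest level in control 2: Dgat2, which makes triglyceride (275.1 CPM), Agpat2 (272.5 CPM), Pnpla2, a triglyceride lipase (263.7 CPM), and Pparg, the receptor that directs fat cell formation (207.3 CPM). Fasn, the fatty acid synthase, was highest in DXM 2 and DXM 3, at 203.4 CPM in each.

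Partners of the members were present whether or not the members were. The adiponectin receptors Adipor1 and Adipor2 ranged from 114.5 to 243.5 and from 128.2 to 250.6 CPM. Adipor2 was lower in model than in control at an unadjusted edgeR p of 0.00339. Lepr, the leptin receptor, was 1.57 higher on the log2 scale in Rhy than in model (unadjusted edgeR p 0.00766). It was also 1.72 higher in DXM than in model (unadjusted edgeR p 0.00439), and both comparisons share the model libraries. Angptl4, an inhibitor of Lpl, was highest in model 3 at 31.2 CPM, where Lpl was also high, and stood at 20.7 CPM in Rhy 1. Of 12 partners tested, 0 passed the adjusted threshold in the 3 comparisons. At an unadjusted p under 0.05 the calls were 3 lower in model than control (9.62% of all genes called), 2 higher in Rhy than model (3.72%) and 2 higher in DXM than model (7.69%). Family relatives of the members had a median r of 0.23 with the mean of the members, the highest being Plin5 (r = 0.676), a perilipin of oxidative tissues, at 1.07 CPM in model 3 against 0.276 and 0.303 CPM in model 1 and 2. Car1, a carbonic anhydrase of colon epithelium, reached 17740 CPM in control 2 and correlated with Cidec at 0.873, and Retnlb, the resistin-like protein of goblet cells, was at 2679 CPM in control 3 and 2350 CPM in model 3.

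Across all genes, the 20 whose profile was most like the mean of the members were led by Cyp2e1, a cytochrome that fat cells and liver make, with r = 0.88 over 12 libraries among 17965 genes ranked. Its level was 16.7 CPM in model 3, 9.14 in Rhy 2 and 3.52 in DXM 2, and 0 in model 1 and Rhy 1. Next, with r of 0.741 to 0.875, came Dnah2, Gm12355, Btnl9, C430042M11Rik, Gm8394, Hmox2, Cd36, Rassf10, Lhpp, Gm14719, Gm35638, Gm3608, P2ry1, Thrsp, Ndufa9, Prcp, Serinc1 and Snai3. Some differed little between libraries, such as Ndufa9, a mitochondrial subunit, at 117.3 to 174.4 CPM, and 4 are pseudogenes by annotation (Gm8394, Gm14719, Gm35638 and Gm3608).

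Markers of other tissues were compared with the mean of the members in the same way as the list of other fat cell genes, whose median r was 0.22. Serosal lining markers had a median r of 0.10 with the mean of the members and summed to 6.26 CPM in model 3, within the 3.51 to 15.5 CPM of all libraries. Pancreatic acinar genes were at 0.771 to 19.8 CPM summed over 13 genes, highest in DXM 3. Skeletal muscle markers had a median r of -0.36, although Acta1, skeletal actin, reached 0.589 with 41.7 CPM in Rhy 2 and 39.7 in model 3. Smooth muscle had a median r of -0.37, endothelium -0.02, macrophages -0.28, fibroblasts and fat cell precursors -0.09 and brown fat 0.23. The part of other tissues in the levels of the members was not tested.

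Markers of position along the colon separated the libraries in another way. Hoxb13, a gene of the hindmost gut, was at 0.165 CPM in control 3, 1.49 in model 3 and 0 in Rhy 1, and at 71.97 to 316.5 CPM in the other 9 libraries. The 3 libraries with Hoxb13 near 0 were the 3 with the highest Lpl, at 72.5 to 81.9 CPM. Their Adipoq levels differed: 11.6 CPM in model 3, 0.878 CPM in control 3, which was the highest control, and 0.685 CPM in Rhy 1. Rhy 2, with the highest Hoxb13, was among the highest for Cfd. The 7 position markers had a median r of -0.29 with the mean of the members. Their summed level had r = -0.53, and -0.62 for deviations from the group means. The part of position in the levels of the members was not tested. B cell markers were also low in control 3 (10.98 CPM summed) and Rhy 1 (1.11 CPM) and not in model 3. Because model 3 differs from the other model libraries in Hoxb13 as well as in fat cell genes, the 2 cannot be told apart within the model group.

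**Figure D5:**
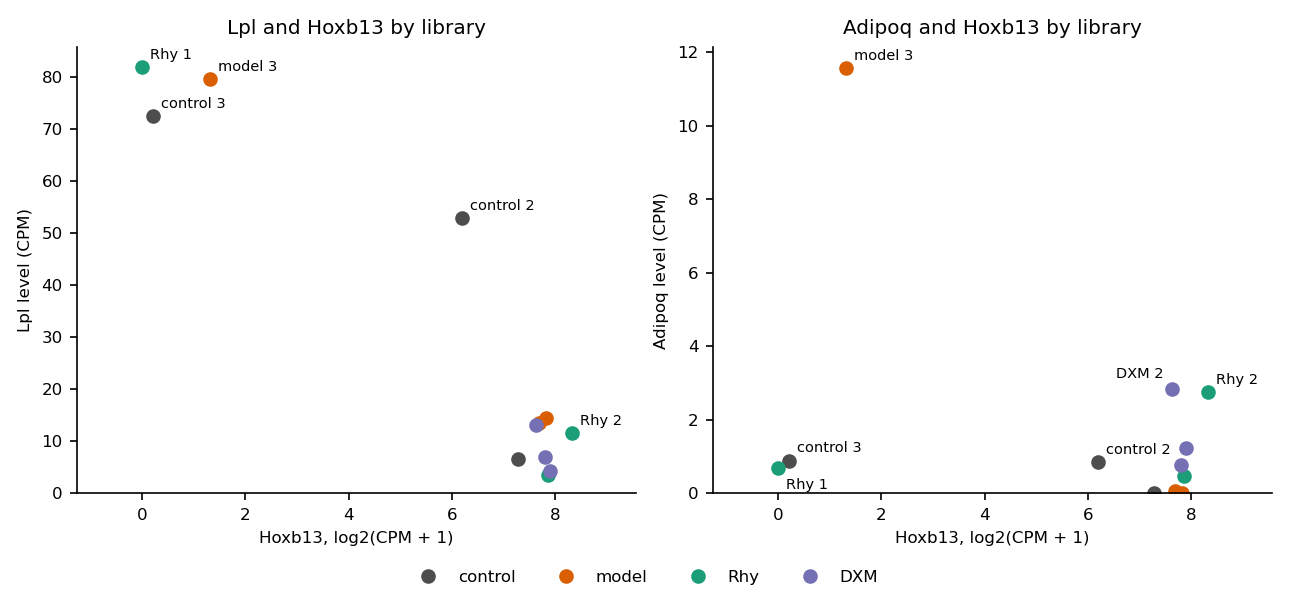
Level of Lpl (left) and Adipoq (right) in CPM against Hoxb13 in log2(CPM + 1), 1 point per library, coloured by group. Lpl is above 70 CPM in the 3 libraries with Hoxb13 near 0, and Adipoq is high in only 1 of these, model 3.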

How the data were processed

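RNA was sequenced from the colon of 12 mice, 3 per group, and groups were taken from the treatment labels. The authors deposited whole-number read counts per gene and FPKM made from the same counts. The submitters' processing notes name HISAT2 2.0.5, featureCounts 1.5.0-p3, DESeq2 1.16.1 and mm10, without roles, and strand use is not given in the sources used here. 0 columns belonged to other samples.

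edgeR 4.0.16 in R 4.3.3 was run on these counts (TMM scaling, filterByExpr with a minimum count of 10, glmQLFit and glmQLFTest on group means of all 12 libraries, two-sided, Benjamini-Hochberg over 16904 genes). CPM carry no prior count, and correlations used log2(CPM + 1). Lep failed the filter and was described only. Total counts of 14346478 to 17749716 put 3 counts at 0.145 to 0.257 CPM. Leaving out each library, other scaling, filters and fits, DESeq2 1.42.0, limma 3.58.1 on log2 FPKM and summing model 1 and 2 were tried, and scripts were tested on simulated data. Replicates carry no stated pairing: of 18 pairs with the same number, 5 had deviations correlated above 0.1.

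The members and gene lists were chosen with earlier results of these data known. Named were the 10 members, the 20 genes most correlated with their mean among those with at least 50 counts (1 of the 20 is not reported here), and of each other list the 4 genes highest in mean CPM (for other fat cell genes also the 6 with the largest range). Lepr and Angptl4 fall outside this rule and were named after their values were seen. Trarg1 is called Tusc5 in the table. The p-values measure the spread between these libraries.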

Additional observations from a re-analysis of the deposited data

How the results depend on the processing

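Where an adjusted p was given, 0 members passed the threshold under any setting. DESeq2 gave none in model against control for Adipoq, Plin1, Lep, Cfd, Retn and Car3. It gave none in Rhy against model for Adipoq and in DXM against model for Adipoq and Lep. The fits of only the 2 groups did not test Plin1, Lep and Retn or, in Rhy against model, Adipoq. At an unadjusted p under 0.05, keeping any count gave 2 of 10 members in model against control, with 2014 of 29984 genes called. These were Adipoq (edgeR p 0.0406) and Cfd (edgeR p 0.0471). In DXM against model it gave 1 of 10, Lpl (edgeR p 0.0178), with 1756 of 29984 genes called. Fitting only the 2 groups gave 1 of 7, Lpl in DXM against model (edgeR p 0.0225), with 2514 of 16287 genes called. Summing model 1 and 2 gave Fabp4, as stated above. In model against control, 2 of 9 members passed without model 1 (888 of 17342 genes) and 1 of 9 without model 2 (901 of 17371 genes). In DXM against model, 1 of 9 passed without Rhy 1 (1694 of 17393 genes). Calls without model 3 are not given, since the near-identical pair then forms the model group. Over all genes, model against control gave 1 with any count kept, 1 with only the 2 groups fitted and 46 with DESeq2 (0 to 1 with each library left out). Rhy against model gave 5 with DESeq2 and 2 with limma on log2(FPKM + 0.1), and 0 to 1 with a library left out. DXM against model gave 2 with only the 2 groups fitted, 52 with DESeq2 and 2 with limma on log2(FPKM + 0.1). The median log2 fold change of the members was 0.21 and 0.25 for model against control and -0.07 and 0.39 for DXM against model in limma on log2(FPKM + 1) and log2(FPKM + 0.1). For Rhy against model it was -0.18 and -0.16 in these fits and -0.20 with only the 2 groups fitted, on 6 members. With each library left out it ranged from -2.50 to 2.18 for model against control, -2.77 (without Rhy 2) to 3.23 for Rhy against model and -2.07 to 2.77 for DXM against model. The -2.50, 3.23 and 2.77 are without model 3.

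Directions turned in limma on log2(FPKM + 1) for Cidec (0.17) in model against control, Fabp4 (0.54) in Rhy against model, and Fabp4 (0.515) and Cfd (0.84) in DXM against model. On log2(FPKM + 0.1) they turned for Cidec (0.33) and Car3 (-0.23) in model against control, Adipoq (0.71), Fabp4 (0.73), Cfd (0.031) and Car3 (0.28) in Rhy against model, and Adipoq (1.15), Fabp4 (0.72), Cfd (1.75), Retn (0.27) and Car3 (0.42) in DXM against model. With model 1 and 2 summed, Lpl was at 0.086 in model against control. With the replicate number as a block, Fabp4 was at 0.33 and Lpl at 0.057 in Rhy against model and Fabp4 at 0.11 in DXM against model, the medians were 1.07, -0.35 and -0.76, and no member was called; the numbers do not pair the libraries, and 5 of 12 correlated best with their own number. The cause was not tested.

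With each library left out, the log2 fold changes in model against control ranged from -4.05 to 3.30 for Adipoq, -0.99 to 1.68 for Fabp4, -5.93 to 2.41 for Plin1, -0.44 to 0.10 for Plin4, -1.17 to 1.21 for Cidec, -3.22 to 3.44 for Cfd, -5.28 to 3.39 for Retn, -2.50 to 2.38 for Car3 and -1.72 to 0.25 for Lpl. In Rhy against model they ranged from -2.77 to 5.17 for Adipoq, -0.59 to 2.12 for Fabp4, -4.17 to 6.09 for Plin1, -1.02 to 0.53 for Cidec, -4.91 to 4.70 for Cfd, -4.20 to 6.24 for Retn, -3.09 to 3.23 for Car3 and -2.26 to 1.24 for Lpl. In DXM against model they ranged from -1.96 to 5.48 for Adipoq, -0.71 to 1.93 for Fabp4, -2.80 to 5.5 for Plin1, -2.12 to 4.56 for Cfd, -2.12 to 5.91 for Retn and -2.10 to 2.77 for Car3.

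Of the 20 genes most like the members, 11 were shared with Spearman's rho, 11 with a minimum of 10 counts, 8 with deviations from group means and 9 with Adipoq alone as the profile, which was chosen after seeing the data. Depth limits Lep, Retn and Plin1, which had 14, 132 and 134 counts in all.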

Other observations

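B cell markers, summed over 8 genes, were at 128.1 to 165.3 CPM in the model group but at 10.98 CPM in control 3 and 1.11 CPM in Rhy 1. Hoxd13 was at 0 CPM in control 3, 0.06 in model 3 and 0.342 in Rhy 1, against 103 CPM in model 2. Muc2, the goblet cell mucin, was at 6710 CPM in control 3, 4528 in model 3 and 717.3 in Rhy 1, so the libraries with little Hoxb13 differed in it. Collagen Col3a1 was at 183.6 CPM in model 3 and 827.5 CPM in DXM 3.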
